A study of Mus musculus with 42 samples.

Results

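The genes described here encode colonic proteins that move acid, bicarbonate and water, together with the hormone pair that sets intestinal fluid secretion. They were the carbonic anhydrases Car1, Car2 and Car4, the aquaporins Aqp1, Aqp3, Aqp4 and Aqp8, the peptides Guca2a (guanylin) and Guca2b (uroguanylin), and Gucy2c, the receptor of both peptides. Members were found in the tables by gene symbol, and all 10 were present among the 20449 genes listed in at least 1 of the 9 expression tables.

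The study profiled poly(A) RNA from mouse colon by RNA-Seq in 42 libraries of 14 conditions, and asked how the transcriptional corepressor MTG16 (gene Cbfa2t3) acts in the colonic epithelium. All mice were C57/BL6 and at least 8 weeks old, and came from separate colonies, one carrying the Mtg16 null allele and one carrying the P209T point mutation, which weakens binding of MTG16 to E proteins. Each mutant group (Mtg16-/- or homozygous T/T) was set against WT littermates of its own colony, and both alleles were germline, hence present in every cell type of the mutant mice. Crypts of untreated mice were freed by chelation, either from the 5 cm that adjoin the cecum (proximal; 2 Mtg16-/-, 2 T/T and 2 WT of each colony) or from the 5 cm that end at the anus (distal; 4 Mtg16-/- with 4 WT, 4 T/T with 3 WT). Distal crypts were also taken after 5 days of 2% dextran sodium sulfate (DSS), an epithelial irritant, and 4 days of recovery (4 Mtg16-/- with 3 WT, 3 T/T with 3 WT). Distal tumors (3 T/T, 3 WT) followed 10 mg/kg azoxymethane (AOM), a carcinogen, and 3 cycles of 4 days of 3% DSS and 16 days of water. Neither sex nor the pooling of animals was given in the labels, so p-values measure the spread between these libraries.

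Guanylin and uroguanylin are secreted into the gut lumen and bind guanylate cyclase C, the product of Gucy2c, on the apical membrane. The cyclic GMP it makes activates protein kinase G, which opens the chloride channel CFTR and restrains apical sodium-proton exchange, so that salt and water stay in the lumen. Carbonic anhydrases hydrate carbon dioxide to bicarbonate and a proton, the ions that surface colonocytes trade for luminal chloride and sodium: CAR1 and CAR2 are cytosolic, and CAR4 is anchored to the outer face of the apical membrane. Aquaporins are water channels. AQP8 is a marker of differentiated surface colonocytes, AQP4 lies in basolateral membranes, AQP3 also carries glycerol, and AQP1 is abundant in capillary endothelium and red blood cells, as CAR1 and CAR2 are in red blood cells.

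The guanylin genes lie side by side on mouse chromosome 4 (GRCm38), Guca2a at chr4:119637704-119639471 on the plus strand and Guca2b at chr4:119656607-119658954 on the minus strand, with 17135 bp and no other coding gene between them. Because these genes are neighbours, and because E proteins bind the E box CANNTG, the 250 bases upstream of each RefSeq start (GRCm38.p6) are shown 5′ to 3′ along the gene's own strand, with E boxes in capitals. The genes were not tested against each other. The Guca2a window is chr4:119637482-119637731 and the Guca2b window chr4:119658946-119659195.
Guca2a: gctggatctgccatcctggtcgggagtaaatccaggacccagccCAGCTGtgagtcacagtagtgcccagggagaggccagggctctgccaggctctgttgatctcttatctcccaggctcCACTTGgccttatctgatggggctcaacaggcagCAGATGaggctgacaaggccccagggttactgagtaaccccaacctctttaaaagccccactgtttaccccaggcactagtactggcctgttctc
Guca2b: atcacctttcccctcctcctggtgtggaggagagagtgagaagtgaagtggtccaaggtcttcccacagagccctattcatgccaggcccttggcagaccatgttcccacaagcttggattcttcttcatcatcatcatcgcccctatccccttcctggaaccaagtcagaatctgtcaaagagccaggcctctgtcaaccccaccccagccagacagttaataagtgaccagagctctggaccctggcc
The Guca2a window held 3 E boxes and 2 matches to the GATA-factor core GATAAG on either strand, and the Guca2b window held neither motif. Among 32851 RefSeq windows of this length, 66.2% held CANNTG, which is its own reverse complement, and 6.55% held GATAAG. Windows of Car1, Car2, Aqp4 and Gucy2c were not used here.

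Values are normalised read counts, comparable within one table but not between tables. For levels across all libraries, each count was also given as CPM, its share of the library's normalised total scaled to 1000000. In 38 libraries the underlying whole reads could be recovered, and these held 32231389 to 74661922 reads (median 46659626). Differences were tested with limma on log2(normalised count + 1) over every gene with a mean normalised count of at least 10, and called at a Benjamini-Hochberg adjusted p under 0.05 over all genes of that table. Fold changes are therefore on the log2(count + 1) scale. The counts behind the members were large except for Aqp3, which had 0 to 37 reads (median 5) in 32 crypt libraries and entered the test only after DSS in the Mtg16 null colony and in tumors. Guca2b had 204 to 1349 reads in the same crypt libraries. Car1 overlaps a processed pseudogene on its own strand and Aqp4 an antisense gene, so some reads of these pairs may not be told apart.

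One library stood apart from its label. The library labelled distal Mtg16-/- replicate 2 was compared with the others on an axis of 904 other genes that differed between WT segments, scaled so that the mean WT proximal library lay at 0 and the mean WT distal library at 1. It lay at 0.0831, while the other 14 untreated distal libraries lay between 0.951 and 1.03 and the 8 proximal libraries between -0.0224 and 0.0368. Hoxd13, a homeobox gene of the distal hindgut, was listed at 0 in it and ran from 74.6 to 149 CPM in the other untreated distal libraries. Its Mtg16 transcript (Cbfa2t3) was at 24.0 CPM, against 9.69 to 15.2 CPM in the other 3 distal Mtg16-/- libraries and 23.0 to 39.0 CPM in their WT littermates. The members' genotype results in untreated distal crypts are therefore given with and without it, where they turn on it, and the order of the conditions and the matching patterns include it. Elsewhere Cbfa2t3 separated the null groups from WT, with 13.03 to 21.36 against 34.9 to 63.9 CPM in proximal crypts and 7.48 to 11.2 against 33.1 to 46.5 CPM after DSS, and it is no check of the T/T point mutation. Xist, expressed from the inactive X chromosome of females, exceeded 100 CPM in 15 of 42 libraries, unevenly by colony and treatment. These were 4 of 4 proximal libraries of the null colony and 0 of 4 of the T/T colony, 6 of 8 and 2 of 7 untreated distal libraries, 1 of 13 after DSS and 2 of 6 tumors. Genotypes of one comparison differed by at most 1 such library, and its part in the results was not tested.

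Together the 10 genes took a share of the normalised total that fell along the colon. In the 8 proximal libraries they made up 1.37% to 1.76% of all counts, of which Car1, at 10834 to 14864.5 CPM, was the largest part. Their share was 0.318% to 0.429% in the 14 untreated distal libraries, 0.186% to 0.381% in the 13 libraries taken after DSS and 0.0449% to 0.0711% in the 6 tumors. The library labelled distal Mtg16-/- replicate 2 reached 1.25%. Per kilobase of the longest coding transcript, Car1 was the leading member in WT proximal crypts (median 10481 CPM per kb), ahead of Guca2a (1045 CPM per kb) and Car2 (315 CPM per kb). In WT distal crypts the order on the same scale was Car4 (600.4 CPM per kb), Car2 (429 CPM per kb) and Aqp8 (425 CPM per kb), with Guca2a (206 CPM per kb) and Car1 (200.4 CPM per kb) next. Guca2b stood far below its neighbour Guca2a in both segments, at 23.2 CPM per kb in proximal and 8.92 CPM per kb in distal WT crypts. Aqp3 was close to absent, at 0.108 and 0.0321 CPM per kb.

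**Figure D1:**
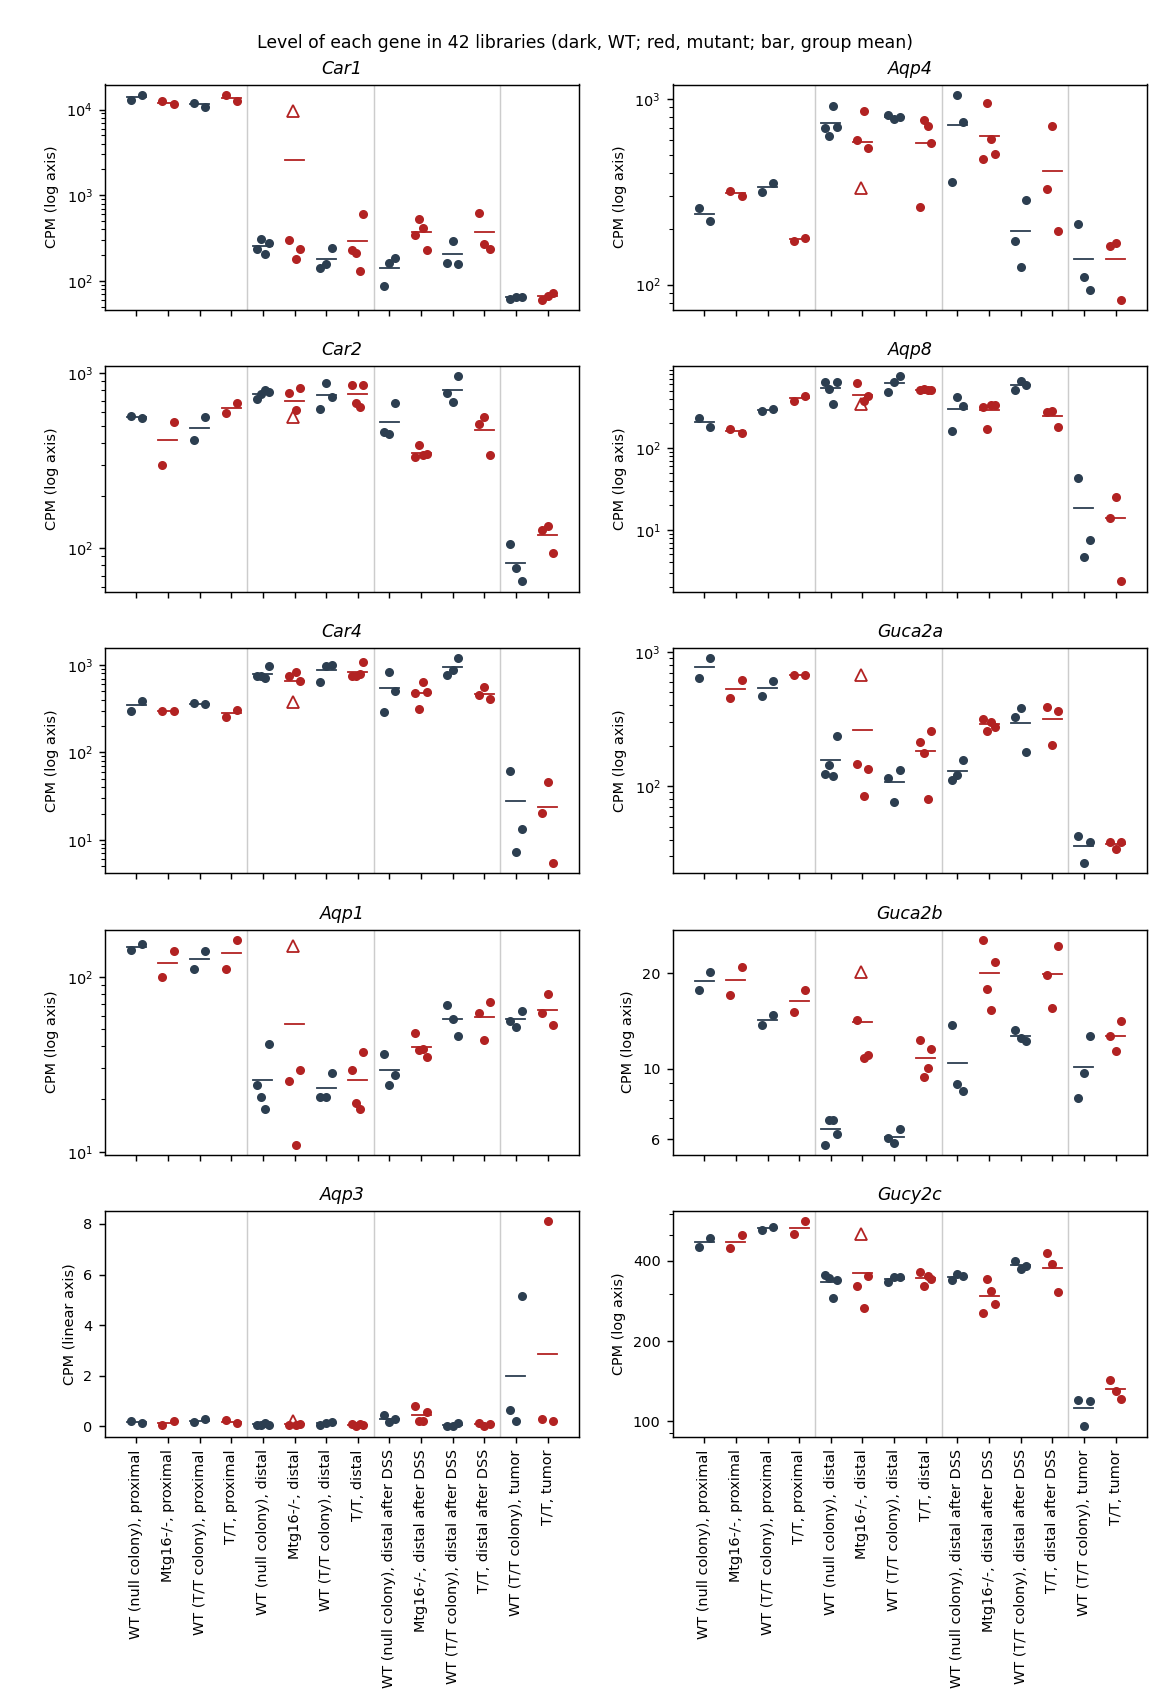
Each panel shows 1 gene in CPM (log axis, linear for Aqp3) over the 14 conditions, with a point for each library, dark for WT and red for mutant, a bar at the group mean and an open triangle for the library labelled distal Mtg16-/- replicate 2. Car1 lay between 10834 and 14864.5 CPM in all 8 proximal libraries and at 60.8 to 73.4 CPM in tumors, and the open triangle lies within the range of the proximal libraries for the other 9 genes and below it, at 9509 CPM, for Car1.

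The first comparison asked how WT distal crypts (7 libraries) differ from WT proximal crypts (4 libraries). All 9 members tested were called, 4 higher and 5 lower in distal crypts, where 42.1% of 13841 genes were called (20.1% higher and 22% lower). The guanylin peptides, their receptor, Car1 and Aqp1 were lower distally, and Car2, Car4, Aqp4 and Aqp8 were higher. For each of the 9 genes the libraries of the segments did not overlap, as for 30% of all genes, and the exact permutation test gave p = 0.00606 (two-sided), the smallest it can give here. Levels in crypt RNA cannot tell fewer cells of a type from less RNA in each cell, and this holds for every result below.

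Of the peptides and their receptor, Guca2a fell most. Its 4 proximal libraries held 27546, 42456, 21682 and 27603 normalised counts, and the 7 distal ones ran from 3346 through a median of 5529 to 11124. The log2 fold change was -2.35 (SE 0.25, adjusted p = 5.31e-06). Guca2b had 765, 950.0, 640.1 and 671 counts in proximal crypts and 255 to 306 (median 289) in distal crypts, a log2 fold change of -1.42 (SE 0.11, adjusted p = 2.78e-07). The distal libraries of Guca2b were tight, with a mean of 279.7 ± 21.6 (SD, n = 7). Gucy2c showed the smallest drop of the 3, from 19639, 23136, 24249.9 and 24529.8 counts to 12618 to 16038 (median 15259.7), a log2 fold change of -0.61 (SE 0.08, adjusted p = 4.12e-05). The ligands thus differed between segments by 5.09-fold and 2.67-fold, and the receptor by 1.53-fold.

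Among carbonic anhydrases, Car1 marked the proximal segment. Proximal libraries held 562897, 692467, 560347 and 492826 counts, against 5950.2 to 13576 (median 10817) in distal crypts, a 59.5-fold difference (log2 fold change -5.89, SE 0.21, adjusted p = 1.02e-10). No distal WT library came near the lowest proximal one. Car4 ran the other way, from 13058, 18324, 16935 and 16126 proximal counts to 26949.8 to 45364 (median 34132) distally (log2 fold change 1.18, SE 0.15, adjusted p = 2.29e-05). Car2 had the smallest difference of the 9, with 24696, 26466, 19309 and 25721 proximal counts and 26596 to 38856 (median 33848) distal counts (log2 fold change 0.49, SE 0.11, adjusted p = 0.00241). The lowest distal Car2 library exceeded the highest proximal one by little, and the call was lost when the number that opens the library names, whose meaning the labels do not give, was a covariate (adjusted p = 0.062).

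The aquaporins also divided by segment. Aqp1 fell from 6191, 7279, 5156 and 6410.5 proximal counts to 763 to 1928 (median 904) distal counts (log2 fold change -2.56, SE 0.21, adjusted p = 2.77e-07). Aqp4 rose from 11192, 10436, 14652 and 16017 counts to 27760.5 to 39622 (median 33972), a log2 fold change of 1.38 (SE 0.12, adjusted p = 6.52e-07). Aqp8 rose from 10175, 8528, 12989 and 13634 counts to 14888 to 33432 (median 27686), a log2 fold change of 1.15 (SE 0.20, adjusted p = 0.000384). The groups were well apart for Aqp1 and Aqp4, while the lowest distal Aqp8 library lay near the proximal range. Aqp3 had 6.79 to 12.6 proximal and 2.04 to 8.08 distal counts, overlapping groups below the filter on low values. Without that filter it was called lower in distal crypts (log2 fold change -1.11, SE 0.37, limma adjusted p = 0.0306).

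**Figure D2:**
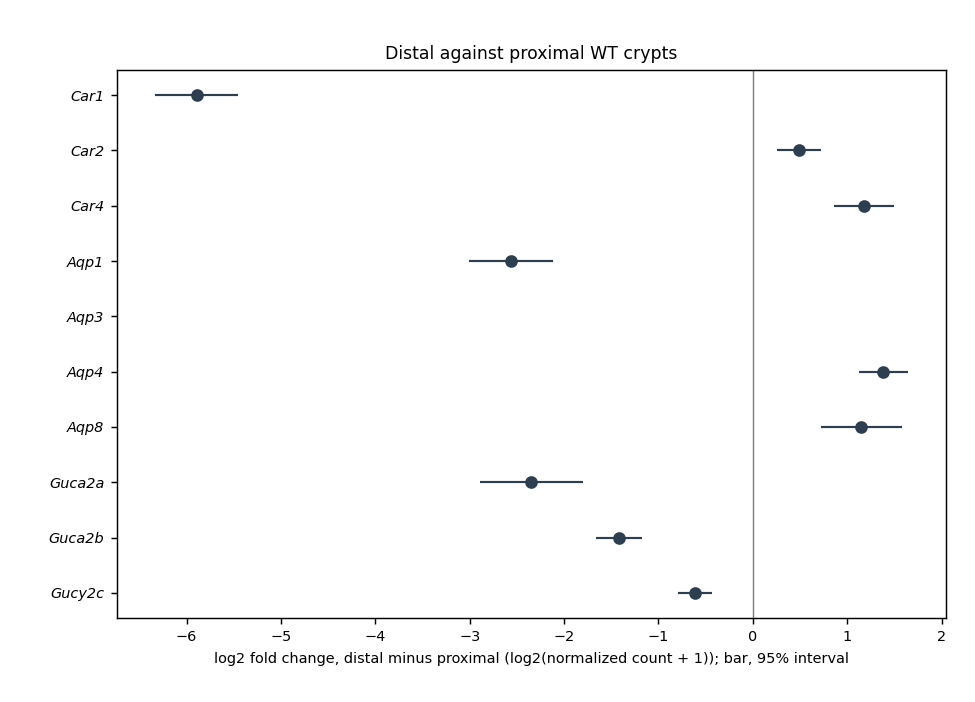
The horizontal axis is the log2 fold change of WT distal over WT proximal crypts (7 and 4 libraries) with its 95% interval for each member tested. Car1 stands at -5.89 and Aqp4 at 1.38, and no interval of the 9 genes reaches 0.

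WT libraries whose names open with 4149 held both segments and could be compared among themselves, where 14.5% of genes were called. They were few and all of the null colony, namely proximal replicates 1 and 2 and distal replicates 3 and 4. Of the 9 members, 6 were called there: Car1 (log2 fold change -5.86), Aqp1 (-2.47), Guca2a (-2.18), Guca2b (-1.53), Aqp4 (1.75) and Car4 (1.27). The values of the other 3 were alike in direction and size without passing, at -0.59 for Gucy2c (limma adjusted p = 0.0799), 1.18 for Aqp8 (adjusted p = 0.0696) and 0.49 for Car2 (adjusted p = 0.0835). Cells other than colonocytes moved with segment too. Summed T cell markers (7 of 8 listed) were at 58.5 to 85.2 CPM in proximal and 9.65 to 31.6 CPM in distal WT libraries, myeloid markers (10 of 10) at 72.7 to 82.2 and 240 to 339 CPM, and goblet markers (11 of 12) at 7881 to 10699 and 12570.2 to 21636 CPM, though of the goblet genes 4 were called higher distally and 3 lower. Tuft markers (10 of 10) were at 32.2 to 59.8 and 17.7 to 29.3 CPM, with 6 of 9 tested called lower distally. Of 12 enteroendocrine markers 3 were called higher and 6 lower, and of 7 plasma and B cell markers 3 were called lower. Ileal epithelial markers had a median log2 fold change of -2.53, with Sis and Slc10a2 called lower of 6 tested. Red blood cell markers had a median of -0.63, with 4 of 4 tested below 0 and none called. The part of these cells in the segment differences was not tested.

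Genes of the wider families went both ways. Of 9 other carbonic anhydrases tested, 2 were called higher and 5 lower in distal crypts, with a median log2 fold change of -1.003 against 0.005 over all genes. The lower group held Car8, a catalytically inactive relative (log2 fold change -3.83), and the membrane enzyme Car12 (-3.70), with 603 ± 160 distal against 7642 ± 984 proximal counts (SD, n = 7 and 4). Car3 and Car11 were also lower (-2.27 and -2.20), and mitochondrial Car5b and cytosolic Car7 were higher (1.501 and 1.05), all 4 at low counts in both segments. The single other aquaporin tested, Aqp11, was lower (log2 fold change -0.96). Of 12 genes of cyclic GMP signalling, 3 were higher and 5 lower. Prkg2, the protein kinase G isoform that acts on CFTR, fell from 2444 ± 445 counts (SD, n = 4) to 19.2 ± 13.6 (SD, n = 7), a log2 fold change of -7.17. Abcc5, an exporter of cyclic nucleotides, fell by 2.47 on the log2 scale, the phosphodiesterase Pde2a by 0.90 and the scaffold Slc9a3r2 by 1.08. The exporter Abcc4 rose by 1.46 and the cyclic nucleotide-gated channel Cnga3 by 1.27, and Npr1, the natriuretic peptide receptor cyclase and the single other guanylate cyclase tested, rose by 1.64.

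The bicarbonate, chloride and proton transporters that work beside carbonic anhydrases had 4 genes higher and 3 lower of 12 tested (median log2 fold change -0.09). Atp12a, the colonic proton-potassium pump, rose by 10.98 on the log2 scale, from 50.4 ± 63.4 counts (SD, n = 4) to 40056 ± 8684 (SD, n = 7). Slc26a3, the apical chloride-bicarbonate exchanger, rose by 1.09, with 20859 ± 4899 proximal and 44805 ± 10122.5 distal counts (SD, n = 4 and 7). The basolateral anion exchanger Slc4a2 fell by 0.95, and the sodium-proton exchanger Slc9a2 fell by 0.62. Surface colonocyte markers, a list that includes Aqp8, had 6 higher and 10 lower of 20 (median -0.39), so the rise of Car4 and Aqp8 was not shared by the list. Emp1 and Alpi, for example, had log2 fold changes of -4.52 and -5.10.

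The genotype comparisons asked whether loss of MTG16, or the P209T mutation, changes these genes in untreated crypts. In proximal crypts of the null colony (2 libraries against 2), none of the 9 members tested was called by limma, where 0.0645% of 13944 genes were called (0.0359% higher, 0.0287% lower and 831 genes at an unadjusted p under 0.05). Guca2b had 827 and 1034 counts in Mtg16-/- and 825 and 1013 in WT libraries, a log2 fold change of 0.02 (95% interval -0.42 to 0.45). Car1 had 602415 and 571638 counts against 607049 and 738349. Without overlap, 1 member lay higher and 3 lower, against 17.5% and 18.1% of all genes (35.6% in either direction). With 2 libraries a side an exact permutation test cannot go below p = 0.333.

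In proximal crypts of the T/T colony 1 of 9 members was called, where 0.232% of 13767 genes were called (0.138% higher and 0.0944% lower). Aqp4 had 7622 and 7997 counts in T/T and 14243 and 15407 in WT libraries, a log2 fold change of -0.92 (SE 0.08, limma adjusted p = 0.038). T/T libraries lay well below WT, but the call was lost when T/T replicate 1 (adjusted p = 0.067), WT replicate 1 (0.273) or WT replicate 2 (0.146) was left out, and when no filter on low values was applied (0.0772). In the null colony the same gene had 15489 and 14862 counts in Mtg16-/- against 12069 and 11127 in WT proximal libraries (log2 fold change 0.39, adjusted p = 0.621). In all, 7 of 9 members did not overlap between T/T and WT proximal libraries, 5 higher and 2 lower, against 22.6% and 22.9% of all genes (45.5% in either direction). Slc37a2, a sugar phosphate transporter of surface colonocytes, was the single gene called in the 5 other transport lists and the surface list (log2 fold change 1.92). Markers of other cells also differed. Summed smooth muscle markers (7 of 8 listed) were at 21.5 to 44.4 CPM in T/T and 17.8 to 19.9 CPM in WT libraries, enteroendocrine markers (12 of 12) at 566 to 712 against 396 to 453 CPM, fibroblast markers (10 of 10) at 6.06 to 23.1 against 5.29 to 7.90 CPM and cycling markers (12 of 12) at 677 to 1135 against 983 to 1138 CPM, with none of these called, and of the goblet list Tff3 was called higher. Ileal epithelial markers had a median log2 fold change of -2.42, with 7 of 8 tested below 0 and none called. The part of these cells in the Aqp4 values was not tested.

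In distal crypts Guca2b was the one member that lay higher without overlap in the mutants of both colonies. Mtg16-/- libraries held 652, 919, 472 and 509 normalised counts of Guca2b and their WT littermates 267, 314, 308 and 298. All 4 mutant libraries lay above all 4 WT libraries, as for 2.58% of genes in that direction (3.75% in either), and the exact permutation test gave p = 0.0286, the smallest possible. The log2 fold change was 1.05 (SE 0.21) and the limma adjusted p over all genes was 0.116. Replicate 2 of Mtg16-/-, the library that stood with proximal crypts, held the highest value, and the share and permutation p above include it. The other Mtg16-/- libraries, at 472 to 652 counts, also lay above all WT libraries. Without replicate 2 the log2 fold change of Guca2b was 0.86 (SE 0.15, limma adjusted p = 0.033), and 1.04% of 13720 genes were called. Among libraries whose names open with 4149 (replicates 3 and 4 of each genotype), which do not include that one, it was 0.69 (limma unadjusted p = 0.0151, adjusted p = 0.928). Among those that open with 5094 (replicates 1 and 2 of each genotype), which include it, the value was 1.42 (adjusted p = 0.792).

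None of the 9 members tested was called in the full null comparison, where 0.239% of 13831 genes were called by limma (641 at an unadjusted p under 0.05). edgeR on the recovered reads also called none of them, and DESeq2, which called 1.45% of genes, called Guca2b (adjusted p = 0.000311). The other members followed replicate 2. Car1 had 13894, 433167, 7916 and 10752 counts in Mtg16-/- and 11088, 13943, 9188 and 13307 in WT libraries, with a log2 fold change of 1.19 with that library and -0.15 without it. For Aqp1 the corresponding values were 0.42 and -0.30, for Guca2a 0.28 and -0.35, and for Gucy2c 0.06 and -0.12. Aqp4 and Car4, higher in distal WT crypts, moved from -0.43 to -0.18 and from -0.35 to -0.10. Of the 4 genes with a log2 fold change above 0 named here other than Guca2b, each turned negative without replicate 2.

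T/T distal libraries held 467, 372, 404 and 475 counts of Guca2b, and WT littermates 240.1, 239 and 266. The groups did not overlap, as for 4.39% of genes in that direction and 7.7% in either (exact permutation p = 0.0571, the smallest possible with 4 against 3). The log2 fold change was 0.78 (SE 0.12, limma adjusted p = 0.283), and DESeq2, which called 0.392% of genes, gave an adjusted p of 3.78e-05 where edgeR gave 0.324. No member was called by limma, where 0.0369% of 13535 genes were called (629 at an unadjusted p under 0.05). Guca2a, the neighbouring gene, had 8126, 6954, 3212 and 10577 counts in T/T and 4567, 3132 and 5457 in WT libraries, which overlapped. Its log2 fold change ran from 0.41 to 0.98 over 13 alternative fits, with none called. Aqp4 was lower without overlap, as for 3.31% of genes (9895, 30491, 28791 and 23819 against 32312, 31798 and 32932), with replicate 1 of T/T far below the rest (log2 fold change -0.60, adjusted p = 0.863). Gucy2c was close to level, with a log2 fold change of -0.03 (95% interval -0.19 to 0.14).

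The Guca2b effects of both alleles in distal crypts differed by 0.27 on the log2 scale (95% interval -0.25 to 0.79, adjusted p = 0.958), and by 0.08 (SE 0.19, adjusted p = 0.967) without the Mtg16-/- library that stood apart. The proximal effect minus the distal effect was -1.04 for the null allele (unadjusted p = 0.00175, adjusted p = 0.765; -0.84 and adjusted p = 0.665 without that library) and -0.58 for T/T (unadjusted p = 0.0066, adjusted p = 0.751), and neither passed, where 0.0149% and 0.0153% of genes did. Enteroendocrine markers were also higher in the distal mutants. Their summed level (12 of 12 listed) was 879 to 1113 CPM in distal Mtg16-/- (932 to 1113 CPM without the library that stood apart) against 349 to 420.3 CPM in WT libraries, with 4 of 12 called higher over all 4 Mtg16-/- libraries (Tph1, Neurod1, Chga and Chgb), and 483 to 731 against 385 to 420.2 CPM in the T/T colony, with none called. In proximal crypts 11 of 12 enteroendocrine markers lay above 0 in each mutant, with none called. Their median log2 fold change there was 0.62 in Mtg16-/- and 0.64 in T/T. Mean Guca2b in proximal crypts was 19.0 CPM in Mtg16-/- against 18.9 CPM in WT, and 16.4 CPM in T/T against 14.3 CPM. The part of these cells in the Guca2b values was not tested.

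**Figure D3:**
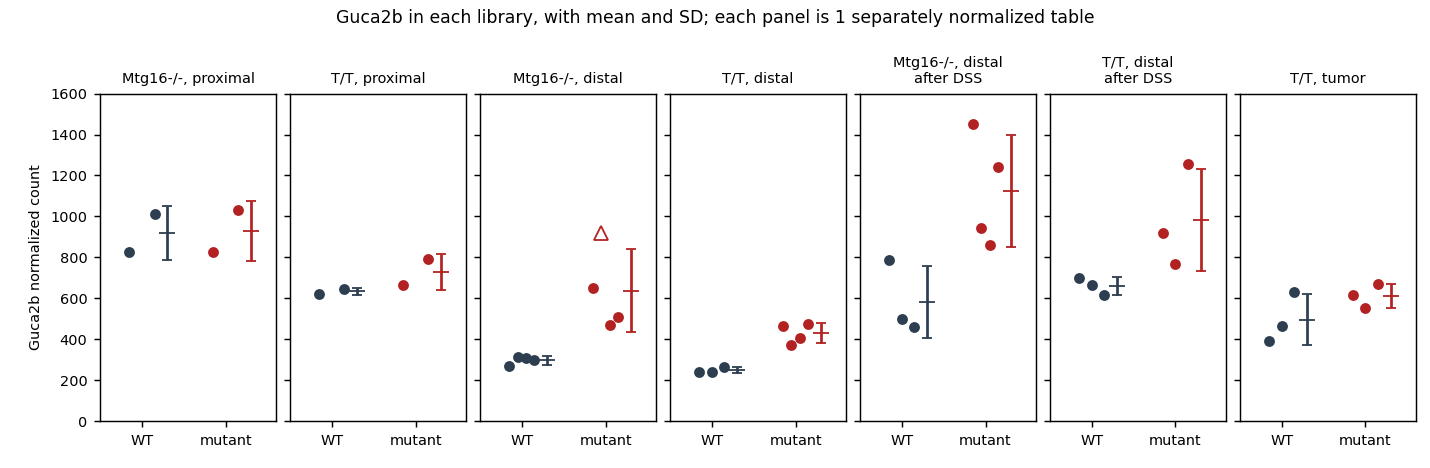
Normalised counts of Guca2b are shown by library in 7 comparisons, each with the group mean and SD, on 1 linear axis from 0, though levels compare only within a panel because tables were normalised separately (open triangle, the library labelled distal Mtg16-/- replicate 2). Mutant libraries lay above all WT libraries in distal crypts at baseline (472 to 919 against 267 to 314 for the null allele, 372 to 475 against 239 to 266 for T/T) and after DSS. The value of 919 is that of the open triangle, and the other distal Mtg16-/- libraries also lay above WT.

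The next comparison asked what DSS and recovery did in WT distal crypts of the T/T colony (3 libraries against 3). Of 9 members tested 4 were called, 3 higher and 1 lower, where 35.6% of 13566 genes were called (14% higher and 21.6% lower), a share near that of the members. Without overlap, 4 members lay higher and 1 lower, against 26% and 29.3% of genes (55.3% in either direction). Names of libraries after DSS open with 5740 and those of untreated ones with 5094, so whatever that number stands for and the treatment cannot be told apart. The exact permutation test cannot go below p = 0.1 with 3 against 3.

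Both peptides were higher after DSS. Guca2b had 643, 617 and 582 counts after DSS and 279, 274 and 308 at baseline, a log2 fold change of 1.10 (SE 0.14, limma adjusted p = 0.00814), and Guca2a had 15966, 18921 and 8515 against 5306, 3594 and 6305 (1.47, SE 0.34, adjusted p = 0.0223). The receptor Gucy2c had 19332, 18501 and 18131 against 15346, 16356 and 16538 counts, without overlap and without a call (0.21, adjusted p = 0.105). Aqp1 rose from 945, 971 and 1347 to 3340.5, 2822 and 2175 counts (1.35, SE 0.21, adjusted p = 0.0104). Aqp4 fell from 37540.5, 36488 and 38049 to 8337, 6167 and 13497 counts (-2.08, SE 0.27, adjusted p = 0.00814). The fall of Aqp4 was the largest change among the members, and its libraries were far apart. No carbonic anhydrase was called: Car4 had a log2 fold change of 0.18 (95% interval -0.39 to 0.75), Car2 0.15 (-0.27 to 0.57) and Car1 0.20 (-0.56 to 0.97), and none of 9 other carbonic anhydrases passed. Aqp8 was at -0.02 (-0.49 to 0.45).

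These calls rested on few libraries. Without WT baseline replicate 2 no member was called, with an adjusted p of 0.0534 for Aqp4 and 0.0535 for Guca2b, and 1 of 13525 genes was called. The call of Guca2a was lost for 5 of the 6 libraries left out in turn (limma adjusted p from 0.0554 to 0.0899) and was kept without DSS replicate 3, whose omission raised the genes called to 66.9%. That of Aqp1 was lost for 3, namely baseline replicates 1 and 2 and DSS replicate 1 (limma adjusted p from 0.0522 to 0.0562). Fold changes also followed transcript length, by -0.307 per doubling, with a median of 0.23 for transcripts under 1000 nt and -0.35 for those over 4000 nt. The longest coding transcripts of Guca2a and Guca2b have 594 and 697 nt, and that of Aqp4 has 5054 nt. With the length trend removed, a step chosen after seeing the data, 40.4% of genes and 5 of 9 members were called: Guca2b at 0.65, Guca2a at 1.00, Aqp4 at -1.81, Aqp1 at 1.21 and Gucy2c at 0.32.

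Genes that act beside the members moved both ways. In the cyclic GMP list 3 of 12 rose (Pde2a 1.66, Slc9a3r2 1.25 and Vasp 0.43, a protein kinase G substrate) and 2 fell (Cftr -1.96 and the phosphodiesterase Pde5a -1.76). From the bicarbonate list, Slc4a2 (0.60) rose, and Slc4a7 (-1.89), Slc26a3 (-1.74) and the butyrate transporter Slc16a1 (-0.68) fell. Cell markers shifted with treatment: cycling markers were at 305 to 426 CPM after DSS against 877 to 1672 CPM at baseline, with 6 of 12 called lower, while 8 of 11 goblet and 6 of 12 enteroendocrine markers were called higher. Of 19 surface colonocyte markers tested, 7 were called higher (Alpi, Emp1, Mall, Cdhr5, Cdhr2, Muc3 and Vil1) and 2 lower (Slc26a3 and Slc37a2). Summed fibroblast markers were at 15.1 to 25.5 CPM after DSS against 5.81 to 9.28 CPM, with 3 of 7 tested called higher (Col3a1, Col1a1 and Pdgfrb), and myeloid markers at 298 to 377 against 240 to 339 CPM, with 2 of 10 called higher (S100a9 and Csf1r). No red blood cell or endothelial marker was called, of 3 tested in each list. Their part in the members' changes was not tested.

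WT crypts of the null colony after DSS and at baseline were held in separately normalised tables, so their levels are set side by side with no test. After DSS their Aqp4 ran from 357 to 1052 CPM and at baseline from 629 to 912 CPM, overlapping, where the T/T colony's WT libraries ran from 125 to 284 and from 776 to 814 CPM. Guca2a likewise overlapped in the null colony's WT, at 112 to 156 CPM after DSS and 118 to 238 CPM at baseline, and so did Aqp1, at 24.1 to 36.1 and 17.6 to 41.2 CPM. Guca2b did not overlap in either colony, with 8.50 to 13.7 after DSS and 5.77 to 6.92 CPM at baseline in the null colony, and 12.3 to 13.3 and 5.83 to 6.46 CPM in the T/T colony. The share of all genes without overlap was not computed for the null colony, and was 55.3% in the T/T colony. Names of the null colony's WT libraries open with 6217 after DSS and with 4149 or 5094 at baseline. There too that number and the treatment cannot be told apart. The difference between colonies was not tested.

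**Figure D4:**
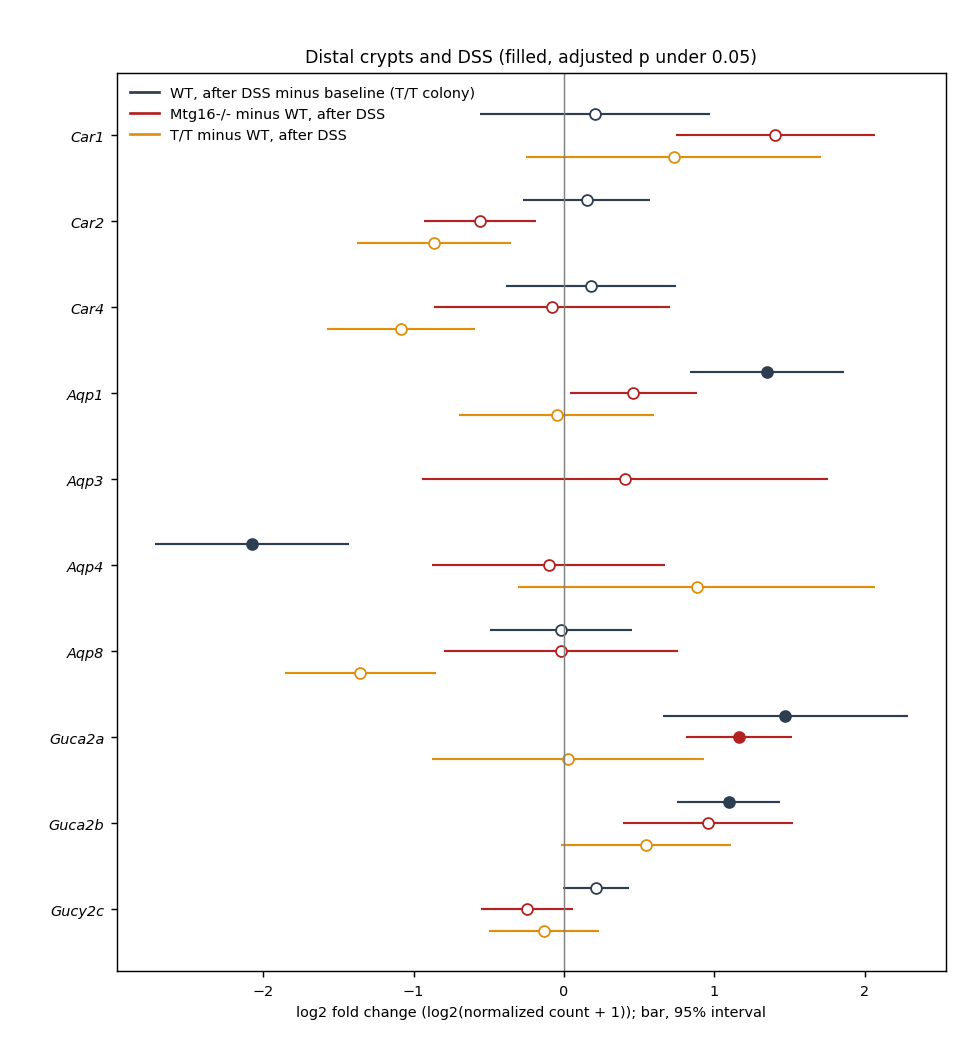
The horizontal axis is the log2 fold change with its 95% interval for each member in 3 comparisons of distal crypts: WT after DSS over baseline, Mtg16-/- over WT after DSS and T/T over WT after DSS, with filled points for an adjusted p under 0.05. Guca2b is filled in the first comparison alone at 1.10, and lies above 0 in the others at 0.96 and 0.54.

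After DSS, Mtg16-/- crypts were compared with WT crypts to ask how loss of MTG16 alters the regenerating epithelium (4 libraries against 3). Guca2a was called, the single member of 10 tested, where 0.629% of 14476 genes were called (0.38% higher). Its counts were 18026, 13707, 16819.8 and 15859.9 in Mtg16-/- and 6396, 6777 and 8459 in WT libraries, a log2 fold change of 1.16 (SE 0.16, limma adjusted p = 0.0155). All mutant libraries lay above all WT libraries (exact permutation p = 0.0571, the smallest possible). The call was lost without WT replicate 2 (adjusted p = 0.0656) or Mtg16-/- replicate 3 (0.0643), and the log2 fold change was 0.94 (adjusted p = 0.0475) with the length trend removed.

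Guca2b had 1452, 941, 859 and 1243 counts against 786, 499 and 460.5 (log2 fold change 0.96, SE 0.25, adjusted p = 0.125). Car1 had 19386, 27821, 23215 and 13296 counts against 4985, 8929 and 9951 (1.41, SE 0.30, adjusted p = 0.0691). Both were higher in every mutant library, though neither passed. Car2 was lower in every mutant library, with 18959, 20551, 19175 and 20021 against 26476, 24986 and 36899 counts (-0.56, adjusted p = 0.168). Gucy2c was also lower without overlap, with 14599.7, 18047, 17364 and 15829 against 19459, 19917 and 18950.4 counts (-0.24, adjusted p = 0.53). In all, 3 members lay higher and 2 lower without overlap, against 6.18% and 5.26% of genes.

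The labels do not say that same-numbered libraries are paired, and Mtg16-/- replicate 4 has no WT library of its number. Same-numbered libraries deviated together in this comparison (correlations 0.554, 0.460 and 0.317). Those of T/T and WT after DSS deviated in opposite ways for replicates 2 and 3 (-0.708 and -0.766). A fit with the replicate number as a block, made for every comparison, is given here as an alternative. It called 8.78% of genes and 5 of 10 members: Car1 at 1.61 (adjusted p = 0.000542), Guca2a at 1.17 (0.00112), Guca2b at 0.90 (0.00309), Aqp1 at 0.51 (0.0218) and Car2 at -0.57 (0.0373). DESeq2, which called 5.02% of genes, called 4 members, namely Car1, Car2, Guca2a and Guca2b. Blood and stromal markers were higher in the mutant libraries. Summed red blood cell markers (7 of 10 listed, hemoglobins among them) were at 9.79 to 100.4 CPM against 1.46 to 5.15 CPM, and fibroblast markers (10 of 10) at 30.3 to 154 against 15.1 to 23.0 CPM, with none of either list called. Myeloid markers (10 of 10) were at 322 to 655 against 312 to 313 CPM with Lyz2 called higher, enteroendocrine markers (12 of 12) at 594 to 693 against 347 to 474 CPM with Cck and Neurog3 called higher, and plasma and B cell markers (7 of 8) at 221 to 311 against 186 to 251 CPM with none called. The tuft cell genes Dclk1 and Trpm5 and the secretory lineage factor Atoh1 were called lower, and Cdx2 higher. CAR1, CAR2 and AQP1 are red blood cell proteins, and the part of these cells in the values was not tested.

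T/T crypts after DSS (3 libraries against 3) had no member called by limma among 9 tested, where 0% of 13648 genes were called (1197 at an unadjusted p under 0.05), and edgeR called none either. Aqp8 had 12777, 14146 and 9189.5 counts in T/T and 26983, 34936 and 29388 in WT libraries (log2 fold change -1.35, SE 0.21, adjusted p = 0.159). Car4 had 21029, 27760.4 and 20838 against 40882, 47022 and 60214 counts (-1.08, SE 0.21, adjusted p = 0.187). Each T/T library of both surface genes lay below each WT library. Car2 did the same, with 24074, 27995 and 17629 against 40680.0, 36528 and 48224 counts (-0.86, adjusted p = 0.274). DESeq2, which called 2.45% of genes, called Aqp8 (adjusted p = 0.000211) and Car4 (0.00669). Guca2b was higher without overlap, with 921, 767 and 1256 against 699, 665 and 614 counts (0.54, adjusted p = 0.591). With 1 member higher and 3 lower without overlap, against 5.66% and 8.02% of genes, the exact permutation p of each was 0.1, the smallest possible. Cell markers differed beside these genes, though none was called. Summed goblet markers (11 of 12 listed) were at 15427 to 16206 CPM in T/T and 23822 to 26047 CPM in WT libraries, cycling markers (12 of 12) at 622 to 702 against 305 to 426 CPM, and red blood cell markers (7 of 10) at 11.48 to 51.01 against 2.93 to 8.27 CPM. Tuft markers (10 of 10) were at 11.6 to 17.6 against 16.2 to 33.4 CPM, with a median log2 fold change of -1.84 over 9 genes. Plasma and B cell markers (7 of 8) were at 236 to 398 against 240 to 314 CPM, with a median of 1.62 over 7 genes. Their part in the values was not tested.

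Car4 and Aqp8 had other values in the null colony after DSS, with log2 fold changes of -0.08 and -0.02 in Mtg16-/- over WT. The difference between the alleles was 1.34 for Aqp8 (95% interval 0.47 to 2.20, unadjusted p = 0.00491, adjusted p = 0.775) and 1.00 for Car4 (0.14 to 1.87, adjusted p = 0.775). For T/T, the Aqp8 effect after DSS minus that at baseline was -1.08 (unadjusted p = 0.0012, adjusted p = 0.172). The null effect on Guca2a after DSS exceeded that of T/T by 1.14 (0.21 to 2.06, adjusted p = 0.775). No member passed in any of the 6 tests of a difference between effects.

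On the axis of 904 genes the mutants also moved after DSS. WT libraries lay between 0.852 and 0.936 (6 libraries) and mutant libraries between 0.657 and 0.791 (7 libraries), with no overlap, and tumors lay between 0.677 and 0.734. Guca2a, Guca2b and Car1 are proximal in WT crypts and Aqp8, Car4 and Car2 distal, and the members without overlap after DSS lay on the proximal side in both mutants except Gucy2c, which was lower. The axis describes these libraries with no test, and its part in the members' values was not tested.

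**Figure D5:**
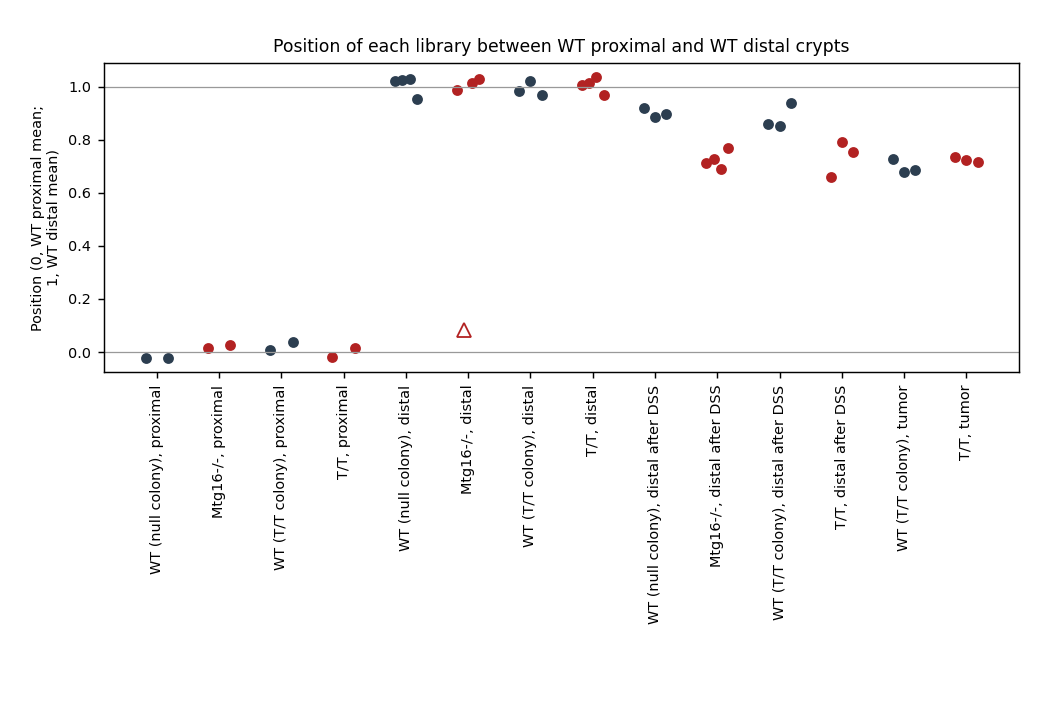
Each point is 1 library placed on the axis of 904 other genes (0 for the mean WT proximal library, 1 for the mean WT distal library) by condition. The library labelled distal Mtg16-/- replicate 2 lies at 0.0831, and mutant libraries after DSS (0.657 to 0.791) lie below WT libraries after DSS (0.852 to 0.936).

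Tumors of T/T and WT mice (3 against 3) did not differ in any member by limma, where 0% of 15900 genes were called (392 at an unadjusted p under 0.05), and edgeR and DESeq2 called none of the 10. Guca2b had 615, 552 and 668 counts in T/T and 391.8, 465 and 633 in WT tumors (log2 fold change 0.32, 95% interval -0.14 to 0.79). Car4 varied widely between tumors of one genotype, with 984, 2220.4 and 258 counts in T/T and 3014, 346 and 659.7 in WT tumors, and Aqp8 followed the same order, with 684, 1239 and 112 against 2094, 223 and 379. Aqp3 reached 393 counts in T/T replicate 2 and 258 in WT replicate 3 and lay between 9.69 and 31.6 in the other 4. No member had groups that did not overlap, against 5.52% of all genes.

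Levels in tumors can be set beside those in crypts only as shares of each library. Car1 was at 60.8 to 73.4 CPM, Car2 at 64.9 to 135 CPM and Car4 at 5.44 to 62.1 CPM, where untreated distal crypts other than the library that stood apart held 132 to 606, 622 to 888 and 638 to 1092 CPM. Guca2a was at 26.8 to 42.4 CPM against 76.4 to 256 CPM and Gucy2c at 95.6 to 143 CPM against 266 to 364 CPM. Aqp4 was at 83.1 to 211 CPM against 261 to 912 CPM and Aqp8 at 2.36 to 43.1 CPM against 343 to 748 CPM. Guca2b overlapped, at 8.07 to 14.1 CPM in tumors and 5.77 to 14.3 CPM in the same crypts. Aqp1 was higher in tumors, at 51.5 to 79.4 CPM against 10.99 to 41.2 CPM, and so was Aqp3, at 0.202 to 8.10 CPM against 0.0258 to 0.181 CPM. Tumors held more stroma than crypts, with fibroblast markers at 4339.7 to 5657 CPM against 5.29 to 154 CPM over all crypt libraries and endothelial markers at 410.4 to 576 CPM against 4.47 to 9.82 CPM, so tissue makeup and tumor state cannot be told apart in these levels.

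Ordered over the 14 conditions, most neighbours overlapped. Of 13 neighbouring pairs, the number without overlap was 4 for Gucy2c, 3 each for Car1, Car4, Guca2a and Guca2b, 2 for Car2 and Aqp8, 1 for Aqp1 and Aqp4 and 0 for Aqp3. The share over all genes was not computed for such pairs, so these counts only describe the order. Proximal conditions held 2 libraries each, where 35.6% (null colony) and 45.5% (T/T colony) of all genes did not overlap between genotypes. Guca2b was highest in Mtg16-/- crypts after DSS (mean 20.04 CPM, SD 4.43, n = 4), followed by T/T crypts after DSS (19.9 CPM) and by proximal Mtg16-/- and WT crypts of the null colony (19.0 and 18.9 CPM), and each of these 4 overlapped the next of them. Untreated distal WT crypts of both colonies were the lowest (6.45 and 6.11 CPM) and overlapped each other, while the condition just above them, WT tumors at 10.1 CPM, did not overlap with them. Guca2a was highest in proximal WT crypts of the null colony (767 CPM) and lowest in tumors (36.8 CPM in T/T, 35.8 CPM in WT).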

How the data were processed

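Poly(A) RNA of colonic crypts and tumors was sequenced in 42 libraries. Per the labels and the methods of the study, the authors trimmed reads with fastp 0.20.0, quantified them with Salmon 1.3.0 on mm10 and GENCODE vM21, and deposited DESeq2 1.26.0 normalized counts, a signal per gene, in 9 tables scaled separately. Their columns of means, fold changes and p-values from the authors' own comparisons were not used.

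Here limma 3.58.1 (R 4.3.3) was fitted with a mean-variance trend to log2(normalized count + 1) of all genes with a mean of at least 10, with Benjamini-Hochberg adjustment over each table. Whole reads were recovered in 7 of 9 tables (100% of values whole within 0.01) and tested with edgeR 4.0.16 and DESeq2 1.42.0 as alternatives. Exact permutation tests used scipy 1.17.1. Effects of separate tables were compared by the difference of log2 fold changes. The limma fit, edgeR, DESeq2, the removal of the length trend and a difference of effects were run on simulated data. Other alternatives were another pseudocount, no filter, TMM scaling, a replicate block, the number that opens library names as a covariate, and leaving out each library. Between-gene levels used the longest coding transcript. The members are named throughout, and other genes only as called members of fixed lists with the largest changes. Members and lists were chosen with earlier results of these data known. In the Mtg16-/- comparison after DSS, same-numbered libraries deviated together (correlations 0.554, 0.460 and 0.317), so the blocked values are given there. Labels give no animals behind the numbers.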

Additional observations from a re-analysis of the deposited data

Results flagged for a closer look

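Among 55 groups of 4 or 7 libraries of the members, 2 held a library far from the rest, where chance alone marks about 1 in 20 groups. Car1 in untreated distal Mtg16-/- crypts had 433167 counts in replicate 2 and 13894, 7916 and 10752 in the others, so that on the scale tested the gap made up 0.859 of the group's range. This is the library that lay with proximal crypts. Aqp8 in Mtg16-/- crypts after DSS had 9078 counts in replicate 2 and 17839.8, 18666 and 19126 in the others, a gap of 0.907 of the range.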

How the results depend on the processing

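Of 220 values under alternatives for 15 results, 204 kept their direction and their side of the threshold, and of 255 values for members called 234 did, with 21 no longer past the threshold and 0 turned around. Members not called are outside that count, and in distal Mtg16-/- crypts 4 of them turned negative without replicate 2. Counts of members called when 1 library was left out ran from 0 to 1 in distal Mtg16-/- crypts (1 without Mtg16-/- replicate 2), with 0.0144% to 1.04% of all genes called. They ran from 0 to 1 in proximal T/T crypts (0% to 0.197% of genes) and in Mtg16-/- crypts after DSS (0.194% to 0.732%). In WT crypts after DSS they ran from 0 to 5 (all genes called from 1 without baseline replicate 2 to 9086, 66.9%, without DSS replicate 3). DESeq2 called 1 member in distal Mtg16-/- crypts, 1 in distal T/T crypts, 4 in Mtg16-/- crypts after DSS and 2 in T/T crypts after DSS, against 0, 0, 1 and 0 with limma, and 1.45%, 0.392%, 5.02% and 2.45% of all genes, against 0.239%, 0.0369%, 0.629% and 0% with limma. Without a filter on low values, 0 members were called in proximal T/T crypts (0.0114% of genes). Between WT segments Aqp3 was then called in addition (limma adjusted p = 0.0306), where 34.2% of genes were called. With the replicate block, 5 members were called in Mtg16-/- crypts after DSS (8.78% of genes). With the block and the length trend removed, a step chosen after seeing the data, 5 were called (8.52% of genes). In WT crypts after DSS the block called 3 (19.7% of genes), losing Guca2a (limma adjusted p = 0.0535). Same-numbered libraries there did not deviate together (-0.0468, -0.121 and -0.0907). The block changed no other count of members. The cause of these changes was not tested. Aqp3 had a median of 5 reads in crypt libraries, where its counting error is large.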

Other observations

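Over the means of the 14 conditions, each member had genes with a closely matching pattern of log2(CPM + 1), searched among 10834 genes with a mean of at least 5 CPM. The closest were Cyp2c65 and Aldh1a1 for Car1 (Pearson's r = 0.994 for both), Rap1gap2 for Car2 (0.983), Klf4, a transcription factor of differentiated epithelium, for Car4 (0.985), and Edn3 for Aqp1 (0.981). Nox1, the colonic NADPH oxidase, was closest to Aqp4 (0.924), Neurl3 (0.982) and Car4 (0.977) to Aqp8, Cdx2, the intestinal homeobox factor, and Trpm4 to Guca2a (0.979 for both), and Ugt1a7c to Gucy2c (0.993). Guca2b had the weakest match of the 10, Rbp4 at 0.908. Aqp3 was closest to Clec7a, a receptor of myeloid cells (0.992), a pattern set by 2 tumor groups. These values describe 14 conditions that share libraries' depth and segment, including the distal Mtg16-/- library that stood apart, and carry no test.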
